A study of Mus musculus with 2 samples.

Results

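The 10 genes described here encode transcription factors of the mesenchymal stroma of bone marrow: Ebf1, Ebf2 and Ebf3, Foxc1, Prrx1, Snai2, Twist1 and Twist2, Runx2 and Tbx2. They were taken by gene symbol from a deposited table of 54532 genes, where each has 1 row, and 1469 rows of the table carry a transcription factor family. The study sorted niche cells from marrow of transplanted mice, either free of acute graft-versus-host disease (aGVHD, an attack on the host by T cells of the graft) or given cells to provoke it. Both groups were female CB6F1 hybrid mice (CD45.2+) that received 2 irradiation doses of 4.0 Gy and, 4 hours later, marrow cells of B6.SJL mice (CD45.1+). The BMT group received nothing further, and the aGVHD_V group also received spleen cells of female C57BL/6 mice. Cells that carried CD45, lineage antigens or CD71 were depleted, and dead cells were left out with Calcein AM and DAPI. What the V stands for, how many mice gave each library and their age were not given in the sources used here. There is 1 library per group, so no difference below has a replicate check and none was tested.

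Marrow contains reticular stromal cells that wrap around sinusoids and supply blood stem cells with CXCL12 and stem cell factor. FOXC1 and the early B cell factors EBF1 and EBF3 are known to maintain the identity of these cells, and EBF3 keeps them from turning into bone. RUNX2 directs the bone-forming fate of the same lineage and is restrained by the TWIST proteins, while PRRX1 and SNAI2 mark and shape mesenchyme from the embryo onwards.

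Transcripts of these factors were present in the BMT library and scarce in the aGVHD_V library. 9 of the 10 genes had reads in the former and 4 had reads in the latter. Their FPKM, a level of fragments divided by gene length and scaled to library size, summed to 37.4 and 2.26, and their reads to 2884 and 198. 8 members were measured, meaning that either library gave an FPKM of at least 1, and each of these passed through its BMT value alone. A gene that passes through BMT alone cannot be higher in the aGVHD_V library. On the log2(FPKM + 1) scale, 7 of the 8 lay 2-fold or more below their BMT level in the aGVHD_V library, 1 was within 2-fold and none was higher. The median difference of the 8 was -2.11 (aGVHD_V minus BMT), with a range of -2.67 to -0.88. Over all 12942 measured genes 19.4% were at least 2-fold lower, 8.65% were at least 2-fold higher, and the median was -0.07. This background and those by level or family below also hold genes that passed through aGVHD_V. They are therefore not a like comparison for the members, and no background of genes that passed through BMT alone was computed.

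The members lie at levels where lower values were frequent. All 8 had their higher FPKM between 1 and 10, and of 7504 measured genes in that range 27.9% lay 2-fold or more lower and 9.78% that much higher, and the median was -0.27. Of the 681 measured rows with a transcription factor family 18.2% were at least 2-fold lower, and of the 471 such rows between 1 and 10 FPKM 22.7% were. The lower genes made up 69.2% of all genes outside 2-fold, and 84.5% once both libraries were brought to the same FPKM total, which moved the median gene by -0.55. Bringing only aGVHD_V to the total of BMT gave 87.1% and moved it by -0.49. The number of members at least 2-fold lower was 8 and 7 under these scalings.

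**Figure D1:**
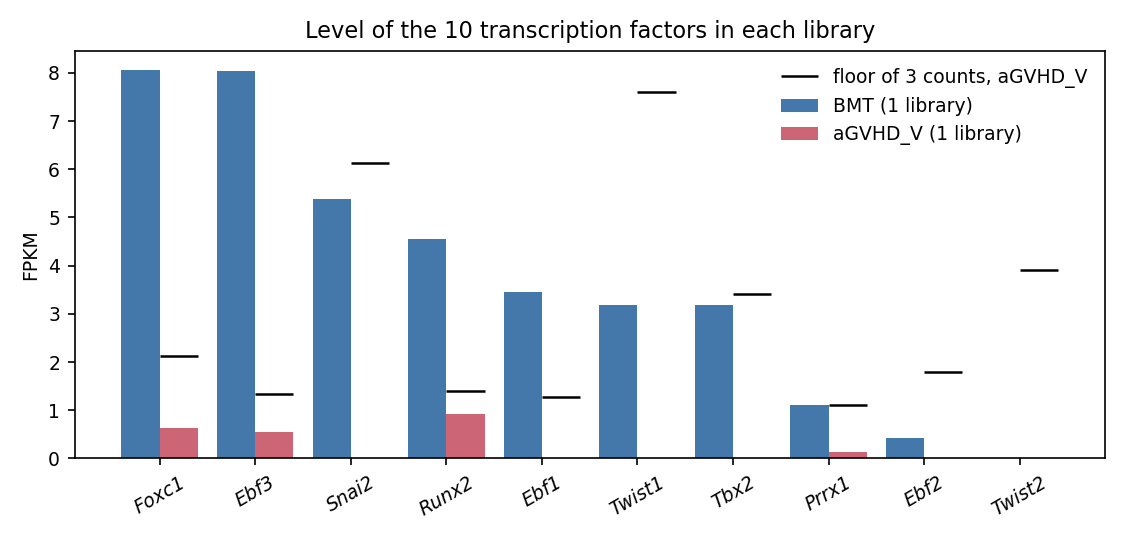
FPKM of the 10 genes (bars) in the BMT and aGVHD_V libraries, 1 library each, with the FPKM that 3 counts would give in the aGVHD_V library as a black line. Every BMT bar above 0 is higher than its aGVHD_V bar, and 4 of the BMT bars that reach an FPKM of 1 stand above the line for their gene by a clear margin (Foxc1, Ebf3, Runx2 and Ebf1).

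The read support limits what can be said of each gene. Detected genes most often had 14 BMT reads or 44 aGVHD_V reads, so reads were divided by these modal numbers and the quotient taken as a count. The floor, the limit that a count of 0 allows, is 3 counts, or 42 and 132 reads. 8 of the 10 members exceeded it in the BMT library and none did in the aGVHD_V library. A bound written as at least a given fold sets the measured BMT level against the aGVHD_V floor and leaves out counting error of the BMT level, which the interval includes. Intervals below are conditional binomial 95% intervals of these counts and cover counting error only. The counts need not be whole numbers, so the intervals are approximate and rest on the modal number as the unit.

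**Figure D2:**
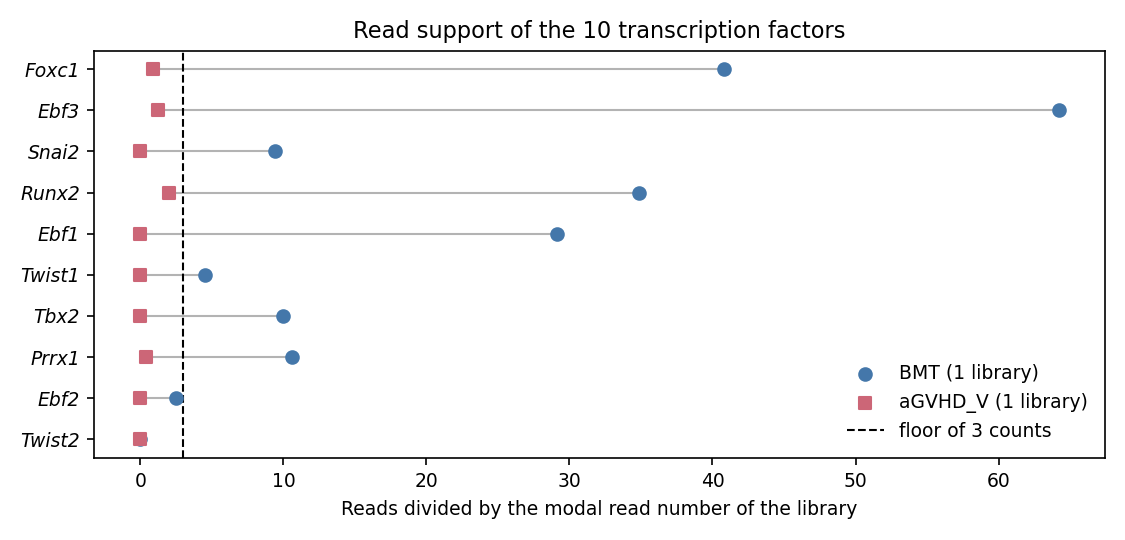
Reads of each of the 10 genes divided by the modal read number of its library (x axis), for the BMT library (circles) and the aGVHD_V library (squares), with the floor of 3 counts dashed. All squares lie left of the floor, and the circles of Ebf2 and Twist2 do too.

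Foxc1, a forkhead factor needed by CXCL12-abundant reticular cells, was with Ebf3 at the top of the 10 genes in the BMT library. Its FPKM was 8.06 with BMT and 0.642 with aGVHD_V, on 571 and 40 reads. The level was 12.55-fold lower in the aGVHD_V library, with an interval of 1.99 to 696 that starts above no difference. The gene (ENSMUSG00000050295) lies on the plus strand of chromosome 13 at 31806633 to 31812476 (GRCm38, as are all positions given here).

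The early B cell factors bind DNA through a zinc-coordinating domain and share a nearly identical recognition sequence. Ebf3 (ENSMUSG00000010476, chromosome 7, 137193673 to 137314445, minus strand) stood at an FPKM of 8.03 with BMT (899 reads) and of 0.549 with aGVHD_V (54 reads). It was 14.6-fold lower in the aGVHD_V library (interval 2.90 to 329). Ebf3 and Foxc1 were at nearly the same FPKM in the BMT library and cannot be ordered at this read support. Ebf1 (ENSMUSG00000057098, chromosome 11, 44617317 to 45008091, plus strand), which also specifies B cells, had an FPKM of 3.45 on 408 reads in the BMT library. It had no reads in the aGVHD_V library, where its floor is an FPKM of 1.27, so it was at least 2.72-fold lower, and its interval started at 2.07. Ebf2 (ENSMUSG00000022053, chromosome 14, 67233292 to 67430918, plus strand), a factor of brown fat and of immature bone-lineage cells, had 35 BMT reads (FPKM 0.417) and no aGVHD_V reads. It was under the floor in both libraries, so no fold is given. Among the early B cell factors the level in the BMT library thus ran from Ebf3 through Ebf1 to Ebf2.

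Runx2, the factor without which osteoblasts do not form, was at an FPKM of 4.55 with BMT and 0.923 with aGVHD_V, on 488 and 87 reads. It was 4.93-fold lower (interval 1.26 to 43.1). All members were under the floor in the aGVHD_V library, so their levels there cannot be ordered. The gene (ENSMUSG00000039153, chromosome 17, 44495987 to 44814797) is on the minus strand. The intervals of Foxc1, Ebf3 and Runx2 overlapped widely, and whether their folds differ was not tested.

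Snai2, the zinc finger repressor Slug of epithelial-mesenchymal transition, had an FPKM of 5.39 on 132 reads in the BMT library and no reads in the aGVHD_V library. The gene (ENSMUSG00000022676, chromosome 16, 14705852 to 14709385, plus strand) is short. Its floor in the aGVHD_V library is an FPKM of 6.13, above the BMT level, so a difference was not detectable at this read support. Tbx2 (ENSMUSG00000000093, chromosome 11, 85832551 to 85841948, plus strand), a T-box repressor, was at an FPKM of 3.184 on 140 BMT reads, with no aGVHD_V reads and a floor of 3.41 there. Twist1 (ENSMUSG00000035799, chromosome 12, 33957671 to 33959829, plus strand), a basic helix-loop-helix factor of mesenchyme, was at an FPKM of 3.19 on 63 BMT reads, again with no aGVHD_V reads and with a floor of 7.60. For these 3 genes the reads in the BMT library show presence there, and the absence of reads in the aGVHD_V library sets no fold. The levels of Ebf1, Tbx2 and Twist1 in the BMT library lay close together.

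Prrx1 (ENSMUSG00000026586, chromosome 1, 163245119 to 163313710, minus strand), a homeobox factor of limb and skeletal mesenchyme, was the measured member within 2-fold. It stood at an FPKM of 1.10 on 148 BMT reads and of 0.144 on 17 aGVHD_V reads. The ratio was 7.65 with an interval from 0.544, which includes no difference, and the log2(FPKM + 1) difference of -0.88 understates the ratio because both levels are low. Twist2 (ENSMUSG00000007805, chromosome 1, 91801461 to 91848028, plus strand), the close relative of Twist1, had no reads in either library. Its floors are an FPKM of 1.09 and 3.90, so its presence below these levels is not excluded.

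Counting error thus left 4 members with a lower level in the aGVHD_V library: Ebf1 by its bound, and Ebf3, Foxc1 and Runx2 by their intervals. The share of all measured genes that would pass in the same way was not computed, so whether 4 is unusual cannot be said. 4 measured members had BMT reads but no aGVHD_V reads, which held for 19.7% of the 7504 measured genes between 1 and 10 FPKM. When a gene lacking reads was placed at its floor, or at the BMT level where that was lower, 3 members remained at least 2-fold lower, namely Ebf3, Foxc1 and Runx2, and the median of the 8 was -0.92. Over all 12942 measured genes 987 (7.63%) were at least 2-fold lower under this setting.

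**Figure D3:**
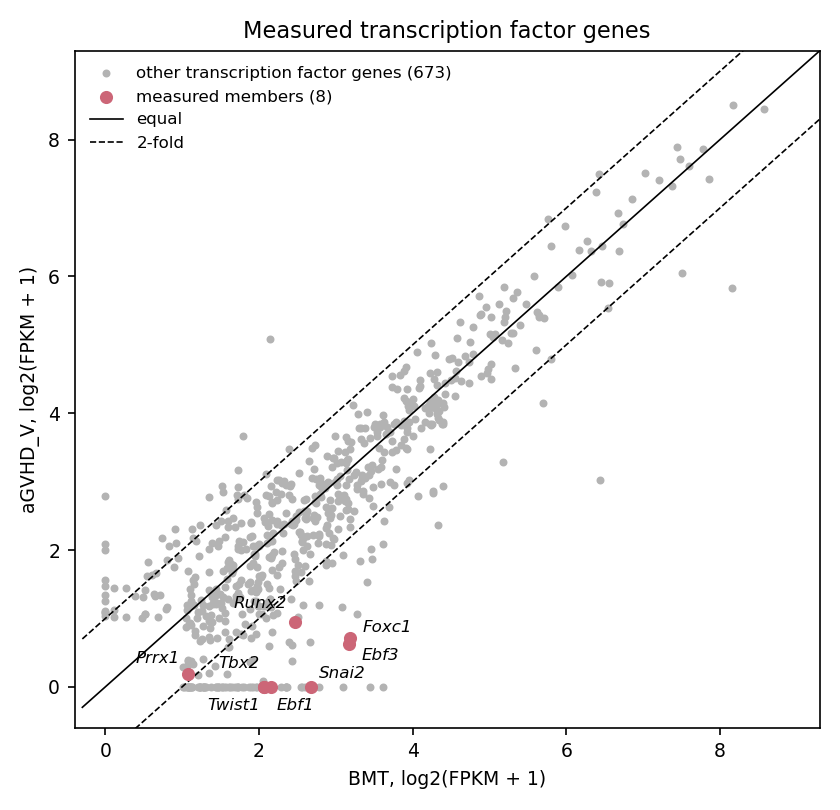
Levels of the 681 measured transcription factor rows as log2(FPKM + 1) in the BMT library (x axis) and the aGVHD_V library (y axis), with the 8 measured members in red. 7 members lie below the lower 2-fold line, and Snai2, Ebf1, Tbx2 and Twist1 lie at 0 in the aGVHD_V library beside many other genes.

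Among the 681 measured transcription factor rows, ordered from the lowest difference upwards, Snai2 was in place 7, Ebf3 in place 11 and Foxc1 in place 13. Ebf1, Twist1 and Tbx2 followed in places 22, 24 and 25, Runx2 was in place 58 and Prrx1 in place 138. The order among genes without aGVHD_V reads follows the level in the BMT library alone.

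The promoters of the members that were lower in the aGVHD_V library beyond counting error are shown for the letters that the factors themselves bind. RefSeq windows (GRCm38.p6, 250 bases before to 50 after the start site) were found for 7 members, with 8 windows in all because Ebf1 has 2 start sites, here shown at the first, which lies inside the gene as GENCODE places it. The windows lie at chr17:44814578-44814877 for Runx2 (minus strand), chr7:137314396-137314695 for Ebf3 (minus strand), chr13:31806396-31806695 for Foxc1 (plus strand) and chr11:44617850-44618149 for Ebf1 (plus strand). Capitals mark the RUNX letters TGTGGT (or ACCACA on the other strand) and the early B cell factor core CCCNNGGG.
Runx2: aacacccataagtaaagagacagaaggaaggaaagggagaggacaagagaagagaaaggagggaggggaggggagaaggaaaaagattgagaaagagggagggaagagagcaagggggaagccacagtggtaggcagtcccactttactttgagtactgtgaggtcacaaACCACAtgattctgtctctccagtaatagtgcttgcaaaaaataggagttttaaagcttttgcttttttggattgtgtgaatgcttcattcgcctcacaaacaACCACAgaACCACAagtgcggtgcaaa
Ebf3: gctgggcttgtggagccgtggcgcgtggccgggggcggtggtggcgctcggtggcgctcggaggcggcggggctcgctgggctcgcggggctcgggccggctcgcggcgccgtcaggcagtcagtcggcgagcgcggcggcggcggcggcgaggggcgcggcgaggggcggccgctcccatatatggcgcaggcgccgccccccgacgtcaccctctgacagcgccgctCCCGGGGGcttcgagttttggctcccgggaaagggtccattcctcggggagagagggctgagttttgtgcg
Foxc1: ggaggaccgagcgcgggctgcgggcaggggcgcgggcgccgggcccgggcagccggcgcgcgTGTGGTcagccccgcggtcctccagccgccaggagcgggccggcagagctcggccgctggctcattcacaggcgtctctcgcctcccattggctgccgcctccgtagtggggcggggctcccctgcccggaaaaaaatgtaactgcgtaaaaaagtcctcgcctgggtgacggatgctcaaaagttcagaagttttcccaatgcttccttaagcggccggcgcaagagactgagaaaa
Ebf1: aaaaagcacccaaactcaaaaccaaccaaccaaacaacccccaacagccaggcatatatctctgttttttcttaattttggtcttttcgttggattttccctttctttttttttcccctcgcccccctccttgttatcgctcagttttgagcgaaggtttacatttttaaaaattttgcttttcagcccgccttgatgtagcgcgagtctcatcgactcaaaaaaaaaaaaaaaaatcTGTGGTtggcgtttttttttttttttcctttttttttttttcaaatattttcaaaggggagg

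The Runx2 window held the RUNX letters 3 times, at -80, 24 and 32 bases from the start site. Windows of 3 members (Runx2, Foxc1 and Ebf1) held these letters, against 16.8% of all 32851 windows. The early B cell factor core was in the Ebf3 window at -21 and in the Twist2 window at -135, against 13.7% of all windows. The E-box letters CACCTG, which SNAI2 binds, were in 0 of the 8 windows (20.2% of all windows), and any E-box, CANNTG, was in 2 of 8 (72.3%). CATATG, an E-box form bound by TWIST1, was in none (3.91%), as were the forkhead letters TAAACA (13.4%). The homeodomain letters TAATTA were in 1 window, that of Prrx1 (5.29%), the T-box letters AGGTGT in 2 (13.7%), and TATAAA in 1, that of Twist1 (13.6%). Both strands were searched, and E-box forms overlap the general E-box. GC content of the 8 windows ran from 36.7% to 77.0%, with a median of 58.8% against 52.7% over all windows, and their median number of CpG was 21 against 7. A match of letters is a description and no evidence of binding.

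**Figure D4:**
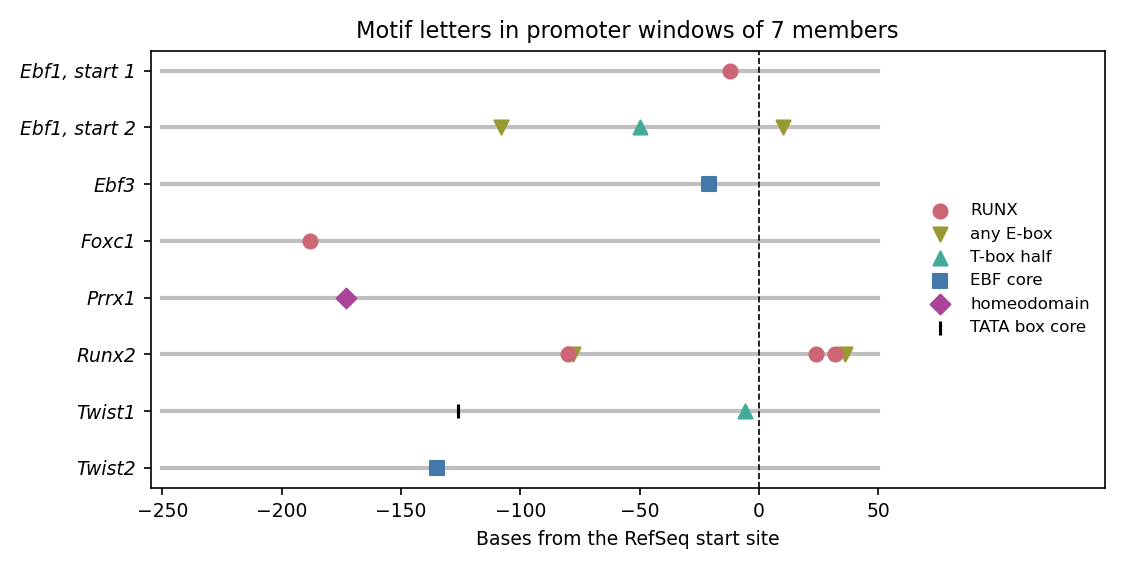
Positions of motif letters (symbols) in the 8 promoter windows of 7 members, in bases from the RefSeq start site (dashed). Runx2 has 3 RUNX matches, and the windows of Ebf3 and Twist2 have 1 early B cell factor core each.

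The relatives of the members within their gene families were mostly at low levels. Of 18 relatives fixed as a list, 8 were measured, and 6 of these lay 2-fold or more lower and none higher (median -1.56). 7 of the 18 lacked reads altogether. The median was -0.26 when genes lacking reads took their floor. Snai1, the other Snail repressor of this transition, was at an FPKM of 4.12 on 81 BMT reads, which allow no bound, with no aGVHD_V reads. Tbx15, a T-box factor of skeletal development, was at 4.23 against 0.576 (192 and 23 reads, ratio 7.34, interval from 0.696, which includes no difference). Tbx6 and Tbx21, factors of paraxial mesoderm and of type 1 T cells, had an FPKM of 3.11 and 3.25 and no reads in the aGVHD_V library. Their 68 and 98 BMT reads allow no bound, and their intervals, from 0.246 and 0.403, include no difference. Runx1, the blood cell relative of Runx2, was at 6.39 against 4.14, a ratio of 1.54 (interval 0.829 to 3.13, which includes no difference).

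By the family names that the table gives, 19 of 37 measured homeobox rows other than Prrx1 were at least 2-fold lower and 3 were higher, with a median of -1.01. Of 5 measured T-box rows other than Tbx2, 3 were lower and none was higher. Of 16 measured forkhead rows other than Foxc1, 1 was lower and 1 higher, with a median of -0.04. The basic helix-loop-helix family had 9 lower and 1 higher of 38 other measured rows, and the C2H2 zinc fingers 45 lower and 24 higher of 257. Foxc1, at -2.46, lay below the median of its family, while Prrx1, at -0.88, lay near the median of its own.

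Of 21 genes of binding partners and cofactors 18 were measured, 5 were at least 2-fold lower, none was higher and the median was -0.29. Tcf3, which encodes the E proteins that pair with TWIST1, was at an FPKM of 102 against 82.1 (ratio 1.24, interval 0.975 to 1.61). Inhibitors of E proteins were lower in part: Id3 was at 50.9 against 16.7, 3.05-fold lower (interval 1.43 to 7.68), and Id4 was at 5.06 against no reads, at least 1.57-fold lower (interval from 1.14). The corepressor Tle2 was at 4.33 against no reads, at least 2.18-fold lower (interval from 1.635), and Yap1, the transcriptional effector of the Hippo pathway, at 1.52 against none, at least 1.14-fold lower by its floor, though its interval started at 0.793 and so includes no difference.

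Other transcription factors of mesenchymal lineages were also lower in part. Of 40 genes 19 were measured, of which 9 were at least 2-fold lower and none higher, and the median was -0.84 (-0.21 at the floor). Cebpa, a factor of fat cells and of granulocytes, was at 35.0 against 8.75, 4.00-fold lower (interval 1.72 to 11.7). Cebpb, which acts in the same fates, was at 192 against 195. Shox2, a homeobox factor of limb skeleton, was at 3.86 against no reads, at least 1.03-fold lower by its floor, with an interval from 0.707 that includes no difference. Pitx1 and Hoxa10, hindlimb and posterior homeobox genes, had 3.10 and 1.92 against no reads, on too few reads for a bound.

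Genes of the cells and fates that these factors serve were listed in 3 groups, whose differences from the members were not tested. Of 20 reticular stromal genes 19 were measured, of which 18 lay 2-fold or more lower and none higher. Their median was -3.05, or -2.82 at the floor. Cxcl12 stood at 346 FPKM against 14.6 and was 23.8-fold lower (interval 16.5 to 35.6). Kitl, stem cell factor, was at 15.9 against 1.05 (ratio 15.2, interval 3.45 to 215), and the leptin receptor Lepr at 29.5 against no reads, at least 16.8-fold lower (interval from 13.5). Esm1, the secreted proteoglycan endocan, and the chemokine Cxcl14 were at 92.4 against no reads, at least 15.6-fold lower (interval from 12.6), and at 103 against 1.03. Hp, haptoglobin, was at 337 against 248 and is also made by blood cells. In bulk libraries, fewer stromal cells and less RNA of a gene per cell cannot be told apart.

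Of 18 genes linked to RUNX2 and bone formation 10 were measured, and 8 of these lay 2-fold or more lower and none higher (median -2.56, or -1.35 at the floor). Spp1, osteopontin, was at 55.5 against 8.71, 6.38-fold lower (interval 2.25 to 27.2). Ibsp, bone sialoprotein, was at 10.4 against no reads and so at least 1.75-fold lower (interval from 1.28). Tnfsf11, the osteoclast-inducing ligand RANKL, was at 6.67 against no reads, at least 1.21-fold lower by its floor, with an interval from 0.847 that includes no difference. The collagen genes Col1a1 and Col1a2 were at 23.2 against 2.47 and 33.9 against 1.39. A further list held 20 genes linked to SNAI2 and TWIST, mesenchymal genes together with some epithelial junction genes. Of these, 18 were measured, of which 10 lay 2-fold or more lower and none higher (median -1.32). Cdh11, a mesenchymal cadherin, was at 14.4 against 0.284 (ratio 50.7, interval from 6.24), Tnc (tenascin C) at 28.6 against 0.676 (ratio 42.3, interval 8.81 to 858) and Col6a1, a chain of type VI collagen, at 60.9 against 5.76. Lox, which crosslinks collagen, was at 9.0 against no reads, at least 3.50-fold lower (interval from 2.71). Vim (vimentin), which blood cells express as well, was at 103 against 98.7.

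**Figure D5:**
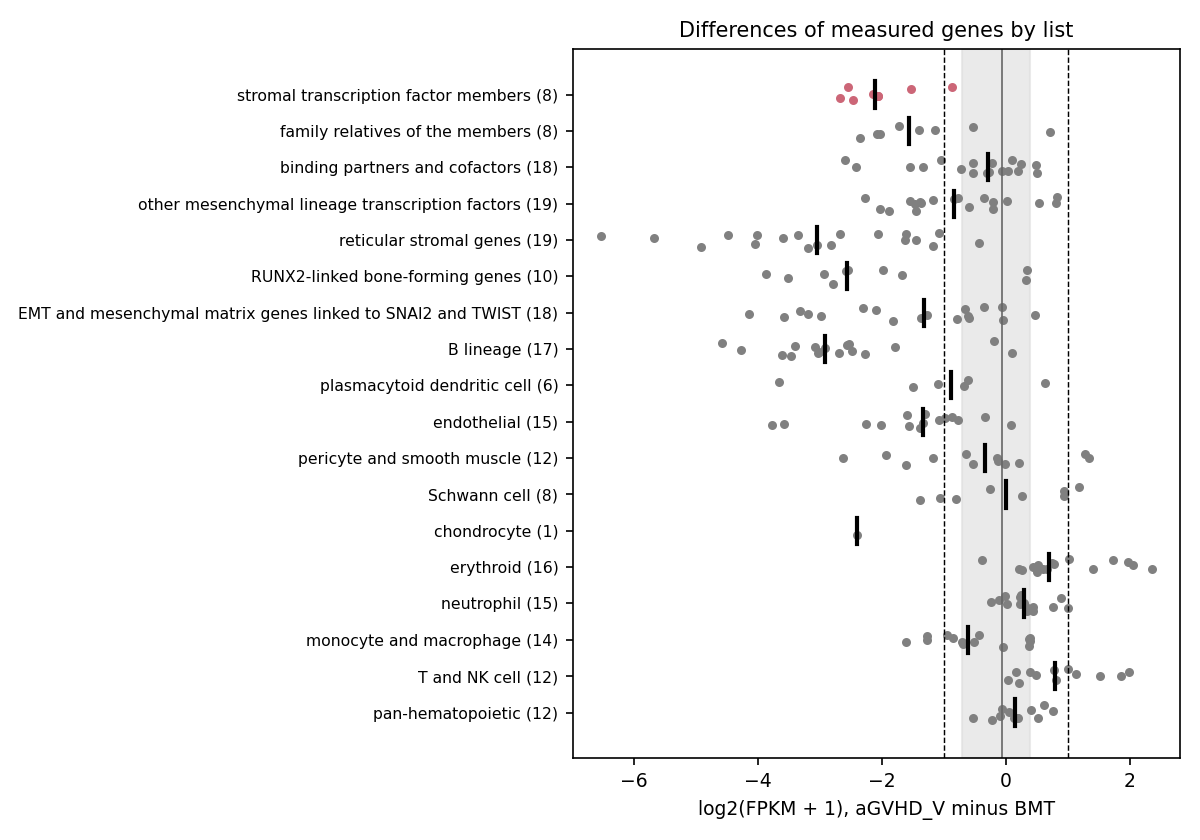
Differences of log2(FPKM + 1), aGVHD_V minus BMT, of the measured genes of each list (points, number measured in parentheses; vertical position within a row is random), with list medians as black bars, 2-fold as dashed lines and the middle 50% of all measured genes in grey. The members (red) and the reticular, bone-forming and B lineage lists have medians below -2, as has the chondrocyte list of 1 gene, while the medians of the blood cell lists other than B lineage lie within 2-fold.

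Some members are also expressed by blood cells, and markers of these cells were listed as well. Ebf1 is a B lineage factor, and of 20 B lineage genes 17 were measured, of which 15 lay 2-fold or more lower and none higher (median -2.92). Their FPKM summed to 319 and 20.3, and 12 of the 17 had no reads in the latter. Pax5, which acts downstream of EBF1 in B cells, was at 2.44 against no reads, at least 1.75-fold lower (interval from 1.28), and Cd79a and Cd79b of the B cell receptor at 22.2 against 0.193 and 23.0 against no reads. The B lineage median was -0.27 at the floor. The part of B lineage cells in the level of Ebf1 was not tested.

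RUNX2 is also made by plasmacytoid dendritic cells. Of 12 genes of these cells 6 were measured and 3 were at least 2-fold lower, with a summed FPKM of 170 against 112. Their defining marker Siglech had an FPKM of 0.317 on 13 reads in the BMT library and no reads in the aGVHD_V library, and Ccr9, Klk1, Cd209d and Upb1 had none in either. Ly6d, which early B cells share, was at 11.6 on 105 BMT reads against no reads (ratio interval from 0.440). Bst2, made by many cells, was at 127 against 82.6 (ratio interval 0.922 to 2.69). Both intervals include no difference. Other genes of the list went the other way, with Smim5 at 12.1 against 19.3 (ratio interval 0.254 to 1.70) and Pacsin1 without BMT reads against 0.848 on 59 reads. The part of these cells in the level of Runx2 was not tested.

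Markers of endothelial and mural cells were measured too. Of 16 endothelial genes 15 were measured and 10 were at least 2-fold lower (median -1.34), with Cdh5 at 10.9 against no reads, and their summed FPKM was 116 against 30.1. Of 13 pericyte and smooth muscle genes 12 were measured, 4 were lower and 2 higher (median -0.34), with Rgs5 at 62.6 against 15.6 and Acta2 at 37.5 against 43.4. Of 11 Schwann cell genes 8 were measured, 2 were lower and 1 higher, and of 11 chondrocyte genes 1 was measured and 7 had no reads in either library. The part of these cells in the members' levels was not tested.

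Both libraries held much blood cell RNA despite the depletion. Ptprc, which encodes CD45, was at 9.28 against 7.85, and 12 pan-hematopoietic genes had a summed FPKM of 648 against 804 and all lay within 2-fold. All 15 neutrophil genes lay within 2-fold as well (16172 against 21809 summed), 3 of 14 monocyte and macrophage genes were lower, and 6 of 16 erythroid genes were higher (46343 against 167750 summed). 5 of 12 measured T and NK cell genes were higher and none was lower, with Gzmb, a granule protease of cytotoxic cells, at 13.8 against 41.3. The members' share of the sequenced RNA therefore depends on the mixture of cells, and the part of the mixture in their differences was not tested.

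Most neighbours of the members on the chromosome lay within 2-fold. Of the 20 nearest measured genes, 1 on each side of each member, 4 were at least 2-fold lower, 1 was higher and 15 were within 2-fold, with a median of -0.01. Among all 12942 measured genes, 19.4% were lower by that much and 8.65% were higher. Whether the neighbours differ from this background was not tested. Rnf145, a ubiquitin ligase gene 51.8 kb from Ebf1, was at an FPKM of 15.4 against 17.9. Bcas3, 6.49 kb from Tbx2, was at 3.27 against 6.00, and Brip1, a DNA repair helicase gene on its other side, at 1.37 against 4.56. Gmds, an enzyme of GDP-fucose synthesis 7.10 kb from Foxc1, was at 2.51 against 5.18. Of the lower neighbours, Fmo2 beside Prrx1 was at 7.78 against 1.27 on 529 and 76 reads. The others were Gorab beside Prrx1, Mgmt beside Ebf3 and the antisense RNA gene Gm11379, 5.84 kb from Foxc1. They stood at 1.56, 2.45 and 3.46 against 0. Their 54, 86 and 16 BMT reads were too few for a bound.

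The members overlap 18 other rows of the table, of which 2 had reads. Gm45278, on the opposite strand to Ebf3, was at 1.71 on 50 BMT reads, with none under aGVHD_V. Supt3, a transcription cofactor gene on the opposite strand to Runx2, was at 1.10 against 3.07 on 55 and 135 reads, which is within 2-fold on the log2(FPKM + 1) scale. Whether the counting used strand is not given, so reads in shared stretches cannot be assigned to either gene with certainty.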

How the data were processed

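RNA of 1 BMT and 1 aGVHD_V library was compared through the FPKM that the authors deposited, per the file headers, with gene lengths in bases. edgeR 3.18.1, GRCm38 and mm10 are named per the submitters' processing notes. The aligner, the counting and its use of strand were not given in the sources used here. A remaining column of values (1 in number) fits no sample's labels and was left out. All 10 members had the position of GENCODE M21 (GRCm38).

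FPKM times gene length were whole multiples of a step in each library (100% of values above 0, tolerance 0.05), which gave reads per gene, 10869191 and 11299834 in all. Modal read numbers (4 or more, moving window of 7) served as the unit of a count. Differences are log2(FPKM + 1), aGVHD_V minus BMT, and 1 or more was counted as at least 2-fold. A fold is a ratio of FPKM without a pseudocount, and a bound uses the floor. A symbol on several rows was read from its row of most reads. Members, the 18 lists and the comparisons were chosen with earlier results of these data known. Named genes are all members, from each other list up to 4 measured genes with the largest absolute difference and the gene of highest mean FPKM, always Cxcl12, Kitl, Lepr, Pax5, Cd79a and Ptprc, and the nearest measured neighbours. Other genes were named after their values were seen (Supt3, Gm45278, Siglech, Smim5, Pacsin1, Ccr9, Klk1, Cd209d and Upb1). 11 other settings of scaling, filter, pseudocount and floor, and 2 chosen after seeing the data, were run with Python 3.11.15, pandas 2.3.3 and scipy 1.17.1.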

Additional observations from a re-analysis of the deposited data

How the results depend on the processing

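Under 13 alternative settings no measured member became higher in the aGVHD_V library. Members without aGVHD_V reads could not have done so under any of them. The number at least 2-fold lower was 7 or 8, of 8 measured or of 9 without a filter, except under 4 settings. The number was 3 with a pseudocount of 5 (median -0.73), 3 of 3 measured with an FPKM minimum of 5 (fewer genes measured), 3 with genes without reads at their floor, and 5 of 6 measured with a minimum of 10 modal counts. The median was -4.34 with a pseudocount of 0.1 and -3.41 with an equal FPKM sum. Over all measured genes, the lower and higher numbers were 2512 and 1119, and became 503 and 356 with a pseudocount of 5, 859 and 616 with the FPKM minimum of 5, and 1058 and 232 with the minimum of modal counts. 4374 were lower with an equal FPKM sum, 987 with genes without reads at their floor, and 547 were higher with the aGVHD_V library rescaled alone. With each read counted as 1 the lower limits of the fold became 96.8 for Ebf1, 11.1 for Ebf3, 9.10 for Foxc1 and 3.92 for Runx2. They also moved above 1 for Prrx1 (4.62), Snai2 (31.0), Tbx2 (32.9), Twist1 (14.6) and Ebf2 (7.91). No paired analysis was possible because each group has 1 library. Read support in the aGVHD_V library limits all members, none of which exceeds 3 counts there. That library had more reads in all (11299834 against 10869191 for BMT). However, its modal read number was 44 against 14, and 12310 genes against 15477 had reads.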

Other observations

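Other transcription factor genes with large differences were named after their values were seen. Hopx, an atypical homeobox gene, had the largest positive difference of the 681 measured rows, at 3.43 FPKM on 63 BMT reads and 33.0 on 534 aGVHD_V reads, 9.64-fold higher (widened 95% interval 3.06 to 37.5). Klf7, a zinc finger factor, was at 0.659 against 3.51, 5.32-fold higher (interval 1.41 to 22.4), and Cers6, a ceramide synthase with a homeobox-like domain, at 1.87 against 6.62, 3.54-fold higher (interval 1.58 to 7.94).

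Egr1, an immediate early zinc finger factor, was at 85.9 against 7.13, 12.04-fold lower (interval 5.98 to 28.6), and Fos, a subunit of AP-1, at 284 against 56.1, 5.06-fold lower (interval 3.54 to 7.47). Sox4, an HMG-box factor of progenitors, was at 9.87 on 574 BMT reads against no aGVHD_V reads, at least 3.82-fold lower (interval from 2.97), and Irx3, an Iroquois homeobox gene, at 7.55 on 253 reads against none, at least 1.69-fold lower (interval from 1.24).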
